A study of Mus musculus with 16 samples.

Results

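The genes described here are 41 regulators and effectors of regulated cell death, out of 25905 genes measured in the mouse retina. They were chosen by name, as caspases, BCL2 family proteins, mitochondrial release factors, inhibitor of apoptosis proteins, death receptors with their adaptors, necroptosis kinases, the DNA fragmentation factor and calpains. All 41 were found in the deposited table of all genes.

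In the mitochondrial pathway of apoptosis, BH3-only proteins sense damage and free the pore formers Bax and Bak1 from pro-survival BCL2 family proteins. Bok, also a pore former, can act without the BH3-only proteins. The opened outer membrane releases cytochrome c, which assembles with Apaf1 into the apoptosome and activates caspase-9, while Xiap and its relatives hold caspases in check. Death receptors reach the same caspases through Fadd and caspase-8, and when caspase-8 is inactive the kinases Ripk1 and Ripk3 can trigger necroptosis, a lytic death. In photoreceptors and ganglion cells, calpains, which are calcium-activated proteases, and the mitochondrial flavoprotein Aifm1 have been studied as further routes to death.

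The study compared retinas of mice flown on the International Space Station for several weeks and returned alive (Spaceflight, 8 libraries) with those of mice kept on the ground in matched housing (Ground control, 8 libraries). All mice were wild type C57BL/6 males, 10 weeks old by the labels, and each library held the RNA of the retina of a right eye. The paper gives this age for the mice that were flown, so they were older when the retinas were taken after the flight. The question of the study was whether spaceflight changes gene expression in the retina. The columns of counts per library carry laboratory codes that none of the labels used here pair with a mouse or a group, so the difference between Spaceflight and Ground control was not analysed here.

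What is described is the level of each gene in the retina over both groups, as the mean normalized count of all 16 libraries that the authors deposited. It is the authors' mean of read counts divided by DESeq2 size factors, with no spread and no value per library, so no difference between neighbouring levels could be set against an error. Genes are set against each other by the level per kb, which is the mean normalized count divided by the length of the longest counted transcript in kb (1000 bases), or by the level per 1000 read starts, explained further on. Mean normalized counts stand beside these as deposited and also grow with transcript length. A mean normalized count of 10 was used as the minimum for a gene to count as detected, and 3 reads over all libraries, a mean of 0.188, were taken as the floor of counting. The depth of each library is not analysed here.

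The high level of the rod markers matched the labelled tissue. The rod markers had a median level of 7657 per kb, Müller glia markers of 482 and ganglion cell markers of 310 (309.6). Cone markers had a median of 70.4 per kb, under the 113 of lens markers, and of 572 over the 7 with 1 counted transcript. Markers of other cells were measurable too, with median levels per kb of 113 for lens, 50.2 for pigment epithelium, 30.5 for endothelium and 16.8 for microglia, whereas blood markers had a median of 0.305. In bulk tissue, fewer cells of a type and less RNA per cell cannot be told apart, so a low level can be an even low level or a high level in rare cells.

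Of the 41 cell death genes, 30 reached the minimum of 10 (73.2%), against 47.8% of all genes. Their median mean normalized count was 82.3, beside 6.98 over all genes. The median level per kb was 30.2, against 9.82 over the 19515 genes with a known transcript length. Together the 41 genes made up 0.167% of the summed mean normalized counts, and Xiap alone supplied 49.7% of their share.

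**Figure D1:**
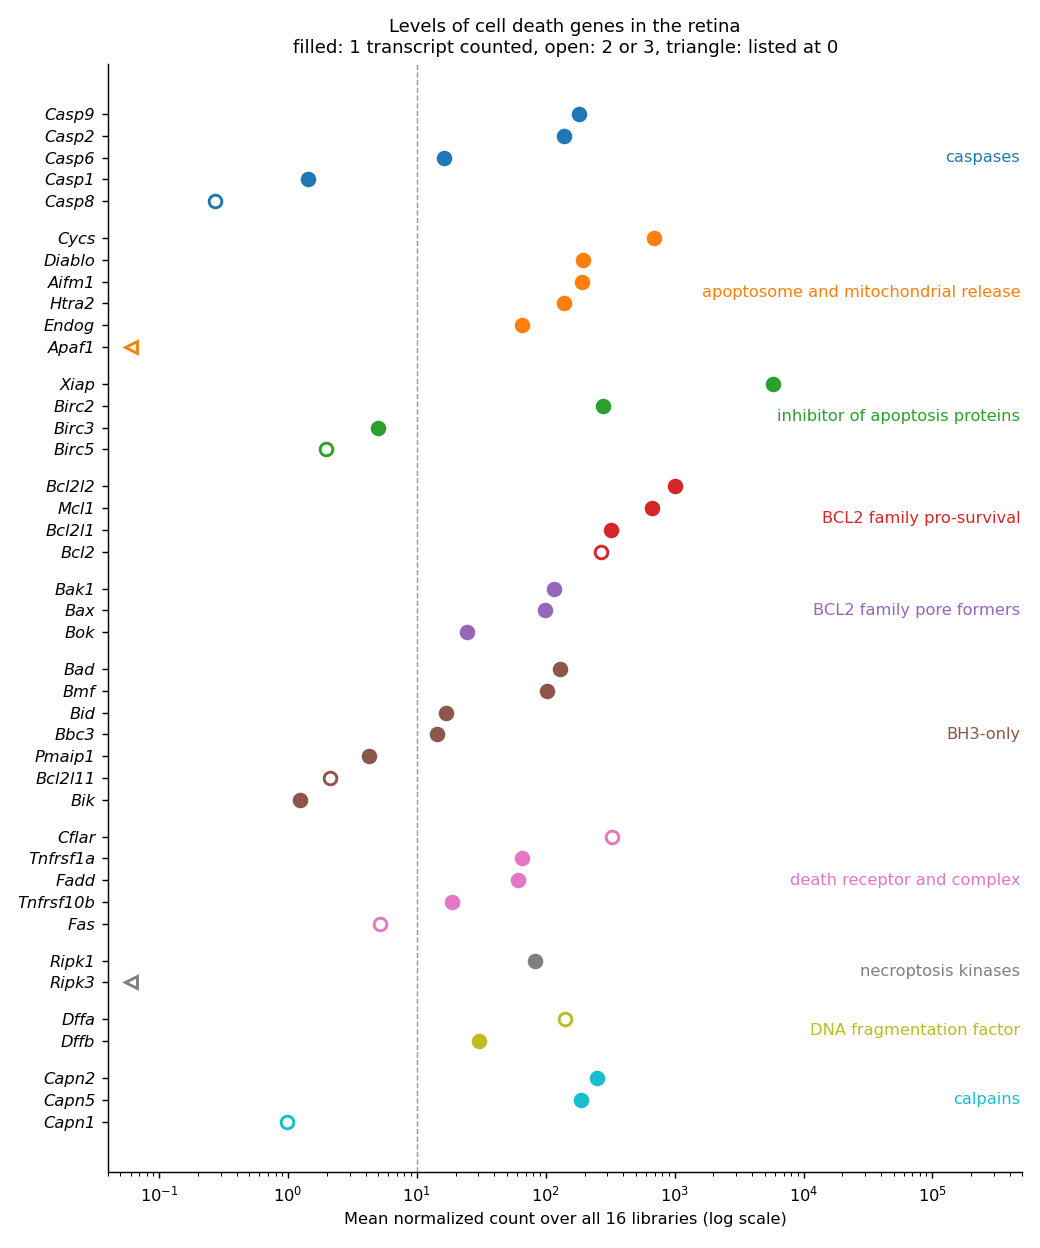
Mean normalized count over all 16 libraries (log scale) of each of the 41 genes, grouped by role, with filled points for genes counted as 1 transcript, open points for genes counted as 2 or 3, and triangles for genes listed at 0. Xiap, at 5789, stands apart on the right, and the genes left of the dashed minimum of 10 are mostly open points or triangles (7 of 11).

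How the reads had been counted mattered for reading these levels. The deposited counts have a row for each RefSeq transcript, 31616 in all, and by its default setting HTSeq leaves a read uncounted where it overlaps more than 1 feature. The setting used, and how transcripts of a symbol were joined, are not given in the sources used here. Of the 41 genes, 31 had 1 counted transcript, and 27 of these (87.1%) reached the minimum, with a median mean normalized count of 103. The other 10 had 2 or 3 counted transcripts, and 3 of these reached it, with a median of 2.04.

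The same split was present over all genes. Of 22086 genes with 1 counted transcript, 51.7% reached the minimum, with a median mean normalized count of 12.9. Of 3794 genes with 2 or more, 24.6% reached it, with a median of 0.806, and 32.7% were listed at 0. Marker genes of Müller glia and of cones were among the low ones. Rlbp1, the retinaldehyde-binding protein of Müller glia, had 2 counted transcripts and a mean normalized count of 1.39, and Pde6c, the catalytic phosphodiesterase subunit of cones, had 2 and a count of 0.0699.

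To describe how much of each gene could be counted without overlap, the positions were found at which a 75-base read can begin and touch only bases of 1 counted transcript, in the GRCm38 models of the same accessions. These positions are named read starts here. Among 2811 genes with 2 or more matched transcripts, 562 had no read start, and 6.23% of them reached the minimum of 10, with a median mean normalized count of 0.0591. The share was 5.05% in the 416 genes with up to 100 read starts, 20.8% in the next 650 genes, with up to 500, and 35.6% in the next 329, with up to 1000. In the 854 genes with more than 1000 read starts it was 56.8%, and the median was 17.4. The 16704 matched genes with 1 transcript had a median of 54.9, and 61.5% reached the minimum. The read starts therefore moved with the level, and their part in the low levels was not tested. The match was not exact, since genes with no read start reached a mean normalized count of 991 (Glo1) and Nrl, a transcription factor of rods, had 88.9 with 8 read starts. The models are of a newer build than the one the reads were counted on. Limits and levels per 1000 read starts therefore hold only as far as the models match the counting. For a gene with read starts in 2 transcripts, the level per 1000 read starts is an average over them. The level of such a gene as a whole can be higher.

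**Figure D2:**
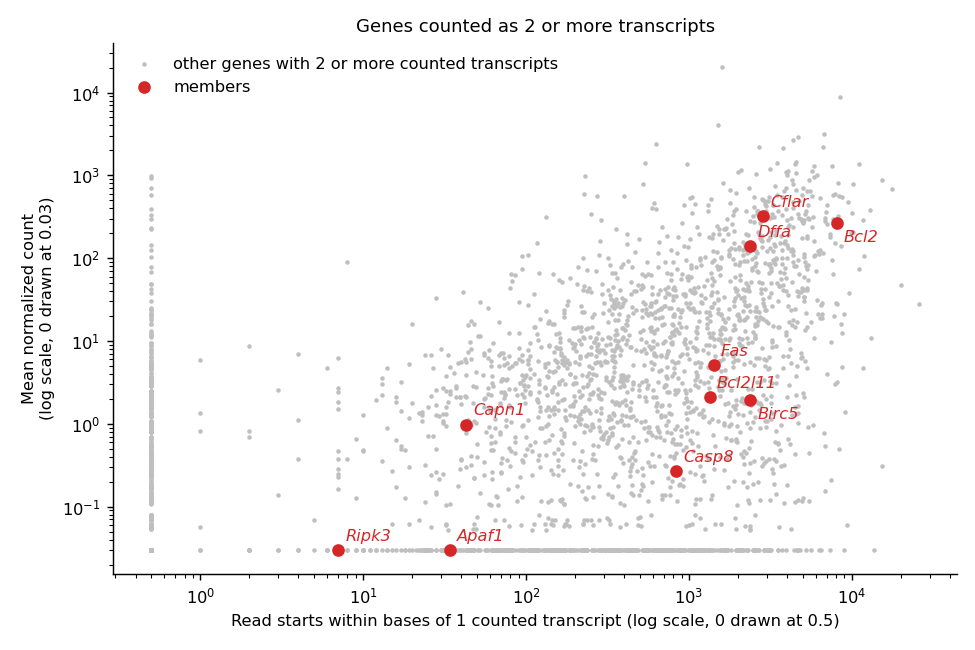
Mean normalized count (log scale, 0 drawn along the lower edge) against the number of read starts within bases of 1 counted transcript (log scale, 0 drawn at 0.5) for genes counted as 2 or more transcripts, grey for all and red for the 10 cell death genes. Apaf1, Ripk3 and Capn1, with 34, 7 and 43 read starts, lie at the lower left, and Bcl2, Cflar and Dffa, with 8060, 2830 and 2368, lie at the upper right.

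The gene for which this can be read most directly is Bcl2l11, which encodes the BH3-only protein Bim in several splice forms. It was counted as 3 transcripts, which share most of their bases, so that 29.5% of its 5037 exon bases belong to a single transcript. All 1339 of its read starts lay in NM_207680.2. Of these, 94 lay in a coding stretch, and the others lay at the 3' end, beyond the ends of the other counted transcripts. The following 168 bases are the coding stretch that only this transcript keeps, on GRCm38 at chr2:128128757-128128924 on the plus strand, and the 94 capitals mark the bases at which a 75-base read can begin and stay wholly within it.

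Bcl2l11: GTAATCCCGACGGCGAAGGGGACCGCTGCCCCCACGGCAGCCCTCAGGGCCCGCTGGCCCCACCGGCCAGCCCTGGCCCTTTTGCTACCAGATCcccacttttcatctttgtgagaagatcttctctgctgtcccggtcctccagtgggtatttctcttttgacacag

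The mean normalized count of Bcl2l11 was 2.11, and per 1000 read starts it was 1.58 (exact Poisson 95% interval 1.09 to 2.21). All such intervals cover counting error over the pooled libraries only, not the spread between mice. Per 1000 read starts Bcl2l11 stood close to Pmaip1, at 1.61 (interval 1.25 to 2.03), and Bik, at 1.43 (interval 0.875 to 2.22), a pair of BH3-only genes that had 1 counted transcript each. The other counted transcripts of Bcl2l11 have no read start, so these values rest on bases of NM_207680.2. Most of its read starts lie at the 3' end rather than in the coding stretch, so the values do not single out a splice form.

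Among the initiator and executioner caspases, Casp9, the apoptosome-bound initiator, had the highest level per kb at 46.1, with a mean normalized count of 179.7. Casp2, an initiator activated on a platform of its own, the PIDDosome, followed at 39.6 per kb and a count of 139.7, so the ratio of their levels per kb was 1.16. Casp6, an executioner caspase that cleaves lamins and is active in axon degeneration, stood at 11.2 per kb and a mean normalized count of 16.4, and Casp9 was 4.10 times higher per kb.

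The caspases that belong to inflammation and to death receptors were lower as counted. Casp1, the inflammasome caspase that matures interleukin-1β, had 1 counted transcript and a mean normalized count of 1.42, and the level per kb of Casp9 was 48.7 times its level. Casp8, the initiator of the death receptor pathway, had a mean normalized count of 0.272. It was counted as 2 transcripts, NM_001080126.1 with 118 read starts and NM_009812.2 with 712, and its count per 1000 read starts was 0.328 (exact Poisson 95% interval 0.0960 to 0.810). This lay below Casp1 on the same scale, at 0.996 (interval 0.629 to 1.499), although the intervals overlapped. The Casp8 value is an average over its 2 transcripts, so whether Casp8 as a gene lay below Casp1 or the other caspases is not shown.

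The proteins that leave the mitochondrion had higher levels. Cycs, cytochrome c, stood at 222 per kb, above 89.9% of all genes on that scale, with a mean normalized count of 694. Diablo, which displaces inhibitors from caspases, followed at 124 per kb, and Cycs was 1.79 times higher per kb. Aifm1, Htra2 and Endog stood at 85.1, 80.9 and 61.1 per kb. They encode a flavoprotein that enters the nucleus in caspase-independent death, a serine protease of the intermembrane space, and a mitochondrial endonuclease.

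Apaf1, the scaffold of the apoptosome, was listed at a mean normalized count of 0. Its 2 counted transcripts, NM_001042558.1 and NM_009684.2, share nearly all of their bases, and 2.40% of 6584 exon bases belong to a single transcript. Only 34 read starts lay there, all in NM_001042558.1, so a count of 0 allows up to 5.51 per 1000 read starts. That limit holds for NM_001042558.1 only. NM_009684.2 has no read start, so the listed 0 does not bound the level of Apaf1 as a gene.

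The inhibitor of apoptosis proteins held the widest range. Xiap, which binds and blocks caspases and is encoded on the X chromosome, had a mean normalized count of 5789 and 885 per kb, above 98.2% of all genes on the latter scale. Its level per kb was 10.5 times that of Birc2, 3.98 times that of Cycs and 3.07 times that of Bcl2l2, the next highest of the 41 genes. Birc2, a ubiquitin ligase that acts on Ripk1, stood at 84.0 per kb and a count of 279.7.

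Birc3, the close paralog and chromosome 9 neighbour of Birc2, had a mean normalized count of 4.98 and 1.87 per kb, from 1 counted transcript. Birc5, survivin, which works in chromosome segregation and is a gene of dividing cells, had a count of 1.96. All 2370 read starts of Birc5 lay in NM_001012273.1, where the count came to 0.828 per 1000 (exact Poisson 95% interval 0.564 to 1.17). Its other transcript, NM_009689.2, has no read start, so this value describes NM_001012273.1 alone.

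The 14 BCL2 family genes of the set were summarised by role on the level per kb. The 4 pro-survival genes had a median of 164 per kb, the 3 pore formers 48.4 and the 7 BH3-only genes 7.63. The ratio was 3.39 between the first pair of medians and 6.34 between the second. These are descriptions of pooled means over few genes, and the ranges overlapped, since Bax lay above Bcl2 and Bad above Bak1 and Bok. The order of the first pair depended on which genes were taken. With 4 further pro-survival genes, Bcl2l10 at 22.8 per kb, Bcl2a1b at 0.672, Bcl2a1a at 0.203 and Bcl2a1d at 0.156, the median of 8 genes was 30.1 and lay under the pore formers, at a ratio of 0.622. The Bcl2a1 genes are near-identical copies, so their counts are uncertain. With Hrk, at 1.45 per kb, the BH3-only median was 4.598 per kb. Bnip3 and Bnip3l, among the further BCL2 family and mitochondrial genes, stood at 729 and 371 per kb and were not added. This median too depends on which genes are taken.

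**Figure D3:**
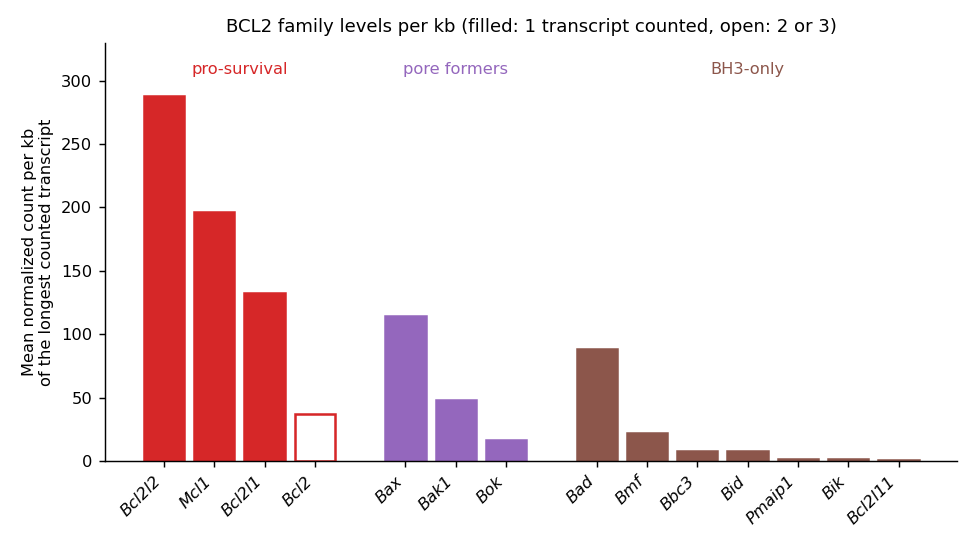
Mean normalized count per kb of the longest counted transcript for the 14 BCL2 family genes, as bars grouped into pro-survival, pore forming and BH3-only genes, with an open bar for Bcl2, which was counted as 2 transcripts. Bcl2l2 is highest at 288, Bax leads the pore formers at 114, and Bad stands at 88.2 where the other BH3-only genes lie at or under 22.2.

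Of the pro-survival genes, Bcl2l2, which encodes Bcl-w, a form known from neurons, was the highest at 288 per kb and a mean normalized count of 1012. Mcl1, a protein of short half-life, stood at 196 per kb, and Bcl2l1, which encodes Bcl-xL, at 132. Bcl2l2 was 1.47 times Mcl1 per kb. Bcl2 itself was the lowest, with a count of 269 and 37.4 per kb, so that Bcl2l2 exceeded it 7.71-fold per kb.

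Bcl2 was counted as 2 transcripts, and the first of them, NM_009741.3, held 6168 of the 8060 read starts while NM_177410.2 held 1892. Its level per 1000 read starts was 33.4, against 294 for Bcl2l2, and the ratio on that scale was 8.82. Bcl2 kept the lowest place among the 4 genes on that scale, but its value there is an average over its 2 transcripts. The level of Bcl2 as a gene can be higher, so that scale does not settle its place. Without division by length Bcl2 was still the lowest of the 4, but closer, with Bcl2l2 3.76 times higher.

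The order of the pore formers depended on length. Bak1 had the higher mean normalized count, 116 against 99.0 for Bax, but the counted Bax transcript is 867 bases long and that of Bak1 2387. Per kb, Bax stood at 114 and Bak1 at 48.4, a ratio of 2.36 in favour of Bax. Bok, which can open pores without the BH3-only proteins, had a count of 24.4 and 16.6 per kb, and Bax was 6.86 times higher per kb. Of the exon bases of Bax, 22.1% are shared with Gm45808 on the same strand. Whether Gm45808 was among the counted features was not checked, so the effect of this overlap on the count is not known.

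Among the BH3-only genes, Bad, which is switched off by phosphorylation through growth factor kinases, stood at 88.2 per kb with a mean normalized count of 128. On the opposite strand, 35.6% of its exon bases are shared with Gpr137, and whether the counting used the strand is not stated. Bmf, which is tied to the cytoskeleton, had a count of 103 and 22.2 per kb, and Bad was 3.98 times higher per kb although their counts were close.

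Bid, which links caspase-8 to the mitochondrion, and Bbc3, which encodes Puma, lay just above the minimum with mean normalized counts of 16.7 and 14.4, or 7.63 and 7.95 per kb. Pmaip1, which encodes Noxa, at 4.26, Bcl2l11 at 2.11 and Bik at 1.25 lay under it. Of the 7 BH3-only genes, 4 thus reached the minimum (57.1%), beside 47.8% of all genes.

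In the death receptor group, Cflar, which encodes the caspase-8 homologue c-FLIP that blocks caspase-8, had the highest level, with a mean normalized count of 327 and 103 per kb. It was counted as 2 transcripts with 2830 read starts between them, 827 in NM_009805.4 and 2003 in NM_207653.3, and stood at 116 per 1000 read starts. On that scale Casp8, which Cflar restrains, had 0.328, from 830 read starts of its own. Both values are averages over 2 transcripts, so how far Cflar and Casp8 differed as genes is not shown.

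The receptors were lower. Tnfrsf1a, the main TNF receptor, stood at 30.2 per kb and a mean normalized count of 65.2, and the adaptor Fadd at 15.5 per kb and a count of 60.4. Tnfrsf10b, the mouse TRAIL receptor, had a count of 18.6 and 5.85 per kb. Fas had a count of 5.16 from 2 counted transcripts with 1415 read starts, 3.65 per 1000 read starts (exact Poisson 95% interval 2.90 to 4.52), and Tnfrsf1a was 8.58 times higher on that scale.

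Of the necroptosis kinases, Ripk1 had 1 counted transcript, a mean normalized count of 82.3 and 12.7 per kb. Ripk3, the kinase that phosphorylates Mlkl, was listed at 0. It was counted as 3 transcripts, 4.56% of its 1973 exon bases belong to a single transcript, and these hold 7 read starts. A count of 0 there allows up to 26.8 per 1000 read starts, which lies above the 12.9 of Ripk1, and the limit holds for NM_001164108.1 only, so the files do not show whether Ripk3 was lower than Ripk1.

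The DNA fragmentation factor consists of a nuclease, Dffb, and its chaperone and inhibitor, Dffa. Dffa had a mean normalized count of 142 and 57.7 per kb, and Dffb a count of 30.2 and 14.4 per kb, a ratio of 3.999 per kb. Dffa was counted as 2 transcripts, and per 1000 read starts its level was 59.9, close to its level per kb.

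Of the calpains, Capn2, the catalytic subunit of m-calpain, had a mean normalized count of 251 and 78.0 per kb. Capn5, a calpain of photoreceptors that is mutated in an inherited inflammatory eye disease, had a count of 189 and 42.0 per kb, and Capn2 was 1.86 times higher per kb. Capn1, the catalytic subunit of μ-calpain, stood at 0.981 as a mean normalized count and 0.321 per kb, which would place it far below the others.

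Capn1 was the gene whose place moved most with the scale. Its 2 counted transcripts share most of their bases, 6.10% of 3150 exon bases belong to a single transcript, and these hold 43 read starts, 16 in NM_001110504.1 and 27 in NM_007600.3. Per 1000 read starts Capn1 stood at 22.8 (exact Poisson 95% interval 13.0 to 37.22), from 15.7 normalized reads over all 16 libraries. On that scale it lay between Tnfrsf1a, at 31.3, and Bok, at 17.5, and under Capn2, at 79.8, and Capn5, at 42.7. The interval did not reach the value of Capn5, but the 22.8 is an average over the 2 transcripts of Capn1. The level of Capn1 as a gene can be higher, so whether it lay under Capn5 or Capn2 is not shown.

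The promoters offered a description that does not pass through the read counts. CpG-rich promoters are typical of genes that most tissues use, and CpG-poor ones of genes kept to some cell types. The number of CG dinucleotides in the RefSeq promoter window of GRCm38.p6, from 250 bases before the start to 50 after, was known for 36 of the 41 genes, and Bik, Capn5, Htra2, Pmaip1 and Tnfrsf10b were not in the table. CG reads the same on both strands, and where a gene had several windows the highest number was taken.

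The 36 genes had a median of 21.5 CG, against 8 over all 27025 genes of the promoter table. At least 15 CG were held by 25 of them (69.4%), against 37.1% of all genes. The 27 genes that reached the minimum of 10 had a median of 22 CG, and 77.8% held 15 or more, close to the 75.2% of all 7547 genes that reached it with 1 counted transcript.

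Of the genes under the minimum, Birc3 and Casp1, which were counted as 1 transcript, had 7 and 3 CG. Over all genes under the minimum with 1 counted transcript, 5394 in number, 12.9% held 15 or more. Of the 7 genes under the minimum with 2 or 3 counted transcripts, Apaf1, Bcl2l11, Birc5 and Capn1 held 15 or more, with 46, 38, 27 and 15, a share of 57.1%. Over all such genes with 2 or more transcripts the share was 58.3% of 1686, so the share of the 7 was near that of genes at large. The remaining ones were Fas with 14, Ripk3 with 10 and Casp8 with 5 CG.

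The extremes among the genes under the minimum are shown to let the difference be seen. They are the 250 bases before the start of Apaf1, on GRCm38.p6 at chr10:91082744-91082993 on the minus strand, and those before the start of Casp1, at chr9:5298267-5298516 on the plus strand, with each CG in capitals. The Apaf1 start is that of the RefSeq promoter table. The counted transcript NM_001042558.1 begins upstream of it, at position 91082770, so the last bases of the stretch lie within that transcript. The Apaf1 stretch holds 42 CG and the Casp1 stretch 1.

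Apaf1: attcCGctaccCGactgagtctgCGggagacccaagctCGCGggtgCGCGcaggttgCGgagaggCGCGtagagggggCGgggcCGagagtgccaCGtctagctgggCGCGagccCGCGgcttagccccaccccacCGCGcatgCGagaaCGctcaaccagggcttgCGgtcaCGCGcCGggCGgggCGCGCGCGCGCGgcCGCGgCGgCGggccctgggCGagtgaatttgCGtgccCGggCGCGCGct

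Casp1: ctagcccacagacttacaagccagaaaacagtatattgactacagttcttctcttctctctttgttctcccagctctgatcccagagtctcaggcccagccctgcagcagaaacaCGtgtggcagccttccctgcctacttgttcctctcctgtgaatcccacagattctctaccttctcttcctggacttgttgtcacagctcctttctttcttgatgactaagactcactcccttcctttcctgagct

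With its whole window at 46 CG, Apaf1 lay above 98.1% of the genes of the promoter table, the highest of the 36, and was listed at 0 in the counts. Bcl2, at 44 CG, and Diablo, at 42, were next, with mean normalized counts of 269 and 196. The CG number describes a sequence and says nothing of which cells use it.

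**Figure D4:**
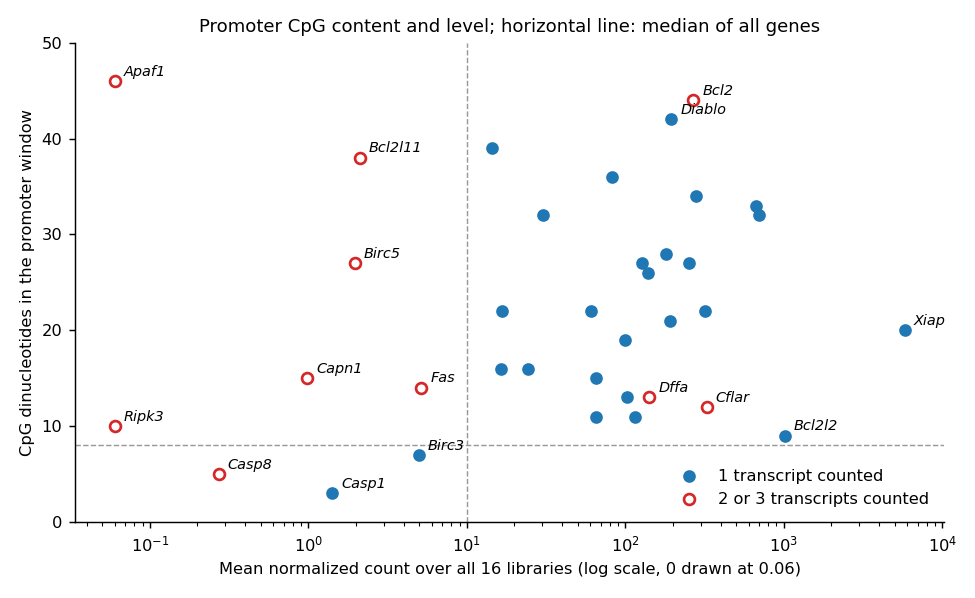
Number of CG dinucleotides in the promoter window of 36 genes against the mean normalized count over all 16 libraries (log scale, 0 drawn at 0.06), with filled points for 1 counted transcript and open points for 2 or 3. Left of the minimum of 10, Casp1 and Birc3 lie under the median of all genes (8, dashed line), while the open points of Apaf1 and Bcl2l11 lie at 46 and 38.

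Some of the 41 genes share exon bases with another gene in the annotation, so their reads could have been split or left out where the other gene was also counted. This held for 13 of them, on the same strand for Diablo (75.7% of its bases, with Gm49027), Bax (22.1%), Bcl2l2 (16.9%, with Gm20521) and Ripk1 (7.90%, with a processed pseudogene). On the opposite strand the largest shares were those of Endog with Spout1 (35.7%), Bad with Gpr137 (35.6%), Htra2 with Loxl3 (31.0%) and Bak1 with Ggnbp1 (25.7%). Whether the other genes were among the counted features was not checked, so how far the overlaps changed these levels is not known. Xiap, Cycs and Mcl1 shared no exon bases with another gene.

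Other genes of the same pathways were taken from lists made up by function. Of 29 further BCL2 family and mitochondrial genes found in the table, 17 reached the minimum (58.6%, against 47.8% of all genes). Their median level was 6.14 per kb over the 29, and 45.1 over the 22 with 1 counted transcript. All genes with 1 counted transcript had a median of 20.2 per kb. The highest of the 29 was Vdac1, a channel of the outer mitochondrial membrane, at 1701 per kb. Of 25 partners and substrates of calpains and caspases, 17 reached the minimum (68.0%). Their median level was 38.0 per kb, and 62.9 over the 18 with 1 counted transcript. Capns1, the small regulatory subunit that Capn1 and Capn2 share, was the highest at 698 per kb.

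Of 27 genes of necroptosis, pyroptosis and TNF signalling, 13 reached the minimum (48.1%), near the 47.8% of all genes. The median level was 2.27 per kb, and 2.38 over the 21 with 1 counted transcript. Its highest gene per kb was Sharpin, a subunit of the linear ubiquitin ligase that acts at the TNF receptor, at 147 per kb. Per 1000 read starts Tnfaip3, counted as 2 transcripts with 283 read starts, stood above it, at 574 against 154. The following genes were picked after their values were seen, and all had 1 counted transcript. Mlkl, the pore former of necroptosis, stood at 0.557 per kb. Nlrp3, the inflammasome sensor, was at 0.141 per kb, and its adaptor Pycard at 0.851. Gsdmd, the pore former of pyroptosis, was at 2.38 per kb and Il1b, interleukin-1β, at 0.388, whereas Il18, the other cytokine that caspase-1 matures, reached 45.1 per kb.

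Casp1 stood at 0.947 per kb, in retinas whose 12 microglia markers ranged from 0 to 83.7 per kb. Itgam, the microglia marker at 0, had 2 counted transcripts. The part of microglia number in the levels of the inflammasome genes was not tested.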

How the data were processed

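After trimming (Trimmomatic), reads were aligned by the authors to mouse NCBI build 37.2 using TopHat2, counted per RefSeq transcript in HTSeq, and normalized using DESeq2 1.22.2 under R 3.5.1. The signal used here is the mean normalized count over all 16 libraries deposited by the authors (8 per group), with both groups pooled. The deposited tables also hold the authors' own comparison of the groups (log2 fold change, its standard error, test statistic, p-value and adjusted p-value), which was not used. The 2 tables of counts each have 16 columns with codes that match no label, and these 32 columns were not used. The planned quasi-likelihood test between groups was therefore not made, nor was any other test.

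The members and all lists were chosen with earlier results of these data known. All 41 genes are accounted for by role. Counted accessions were matched without their version to GENCODE M21 (GRCm38) for 19515 of 25905 genes (75.3%) and for all 41 genes, and lengths, read starts and overlaps came from those models, which are newer than the authors' build. Promoter sequences are from RefSeq (GRCm38.p6). Read starts, for 75-base reads, were tested on simulated data (200 of 200 drawn pairs recovered). Python 3.11.15, numpy 2.4.6 and pandas 2.3.3 were used.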

Additional observations from a re-analysis of the deposited data

How the results depend on the processing

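With a minimum mean normalized count of 5, 20 or 100 in place of 10, 31, 26 and 19 of the 41 genes were detected instead of 30, and 27 when only the genes with 1 counted transcript were taken. The ratio of the median level of the pro-survival genes to the pore formers was 3.37 per read starts, 5.002 without length and 4.05 with 1 counted transcript only, but 0.622 with 4 further pro-survival genes, which turns the order. The ratio of the pore formers to the BH3-only genes was 6.32, 6.87 and 6.21, and 10.5 with Hrk but not Bnip3 and Bnip3l added. These alternatives were chosen after seeing the data. Those listed earlier (other thresholds, filters, normalizations, a GC and length correction and a replicate block) concern tests between groups and were not run. No paired analysis was possible because the columns of counts carry no replicate number of the labels. Leaving out a library was not run for the same reason. The pooled means have no error between mice, and the levels of Apaf1, Ripk3 and Capn1 rest on few bases.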
